A study of Homo sapiens with 6 samples.

Results

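Antagonists of Wnt signaling, the ligases of Wnt receptor turnover and PORCN, an enzyme that Wnt ligands need for secretion, were described in MDA-MB231 cells, an established triple-negative human breast cancer line, with and without knockdown of the Wnt receptor Ror1. The 10 genes were chosen by symbol and not by a cut on their values, though earlier results of these data were known. All 10 were found among the 57445 genes of the table: DKK1, DKK3, SFRP1, FRZB, WIF1, RNF43, ZNRF3, KREMEN1, NOTUM and PORCN. Control cells (shCTL, 3 libraries) carried the lentiviral pGIPZ vector with a non-silencing shRNA, and knockdown cells (shRor1, 3 libraries) carried the same vector with an shRNA against ROR1. Stable shRor1 cells were selected with puromycin, which the paper does not state for the shCTL cells. Whether the cells of each group were a pool or a clone is not given in the sources used here. GEO's labels name the control as empty vector, and the column header of the shCTL libraries also holds the word DMSO, which is missing from the shRor1 header, so that a solvent and the shRNA cannot be told apart by the headers. Nothing states that the 3 libraries of a group came from separate cultures, and p-values therefore measure the spread between these libraries, which may be technical.

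Wnt proteins are secreted lipid-modified ligands that bind Frizzled receptors together with LRP5/6 or with Ror kinases. Their reach is controlled at several steps. PORCN attaches the lipid in the endoplasmic reticulum and NOTUM removes it again outside the cell, SFRP1, FRZB and WIF1 bind the ligand itself, DKK1 occupies LRP5/6 with KREMEN1 as a co-receptor, and the membrane ubiquitin ligases RNF43 and ZNRF3 send Frizzled receptors to degradation. DKK3 is a divergent Dickkopf protein that does not bind LRP6 like DKK1. DKK1, NOTUM, RNF43 and ZNRF3 are also known as targets of β-catenin, which makes them feedback inhibitors.

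Values are TPM (transcripts per 1000000), a gene's share of all transcripts once its length is taken into account, so levels can be compared between genes. TPM keeps no sequencing depth, and no counting error was computed from these values. In bulk RNA, fewer cells with a transcript and less transcript per cell cannot be told apart. Differences are given as shRor1 minus shCTL on the log2(TPM + 1) scale, which understates changes of genes with few TPM. They come from limma over the 16554 genes that reached 1 TPM in 3 or more libraries, with Benjamini-Hochberg adjustment over all of them. Ordinals given to the libraries of a group follow the order of its columns, which share 1 header and bear no number.

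Markers of a mesenchymal breast cancer line were high in the libraries, and some luminal and fibroblast markers were detected as well. VIM, which encodes the intermediate filament vimentin, ranged from 2399 to 2920 TPM over the 6 libraries, and CD44, AXL, CAV1 and MMP14 were each at 107.7 TPM or more in every library. Of 8 luminal markers, 2 stayed below 1 TPM everywhere, namely the hormone receptors ESR1 and PGR, and the other 6 were tested. EPCAM ranged from 12.58 to 15.8 TPM, GATA3 from 3.83 to 4.69, FOXA1 from 3.72 to 5.45 and CDH1 from 0.8 to 1.47 TPM. TFF1 reached 15.26 TPM and TFF3 10.99 TPM. The list summed to between 27.6 and 33.3 TPM in shCTL and between 27.9 and 45.4 TPM in shRor1. The 5 fibroblast markers summed to at most 17.8 TPM. COL1A1 ranged from 7.25 to 13.87 TPM, PDGFRB from 1.66 to 3.18 and DCN from 0.76 to 1.38 TPM. COL1A2 reached at most 0.14 TPM, and LUM was at 0. Among leukocyte markers, PTPRC reached at most 0.39 TPM, CD14 at most 0.54 TPM and CD3E at most 0.03 TPM. Of the 3 endothelial markers, CDH5 and VWF were matched and summed to at most 1.77 TPM, and PECAM1 was not matched. The targeted gene, ROR1, had 16.5 ± 3.65 TPM with shCTL and 12.0 ± 2.76 TPM with shRor1 (mean ± SD, n = 3 each). The ranges of the TPM as deposited overlapped, with 2 shRor1 libraries below all controls. The difference was -0.43 (95% confidence interval -0.88 to 0.03, unadjusted p = 0.065 and adjusted p = 0.984 from limma). It depended on the scaling, with -0.49 after quantile normalization (unadjusted p = 0.015 from limma) and -0.5 after median ratio scaling (unadjusted p = 0.017 from limma). Without the third library of both groups it was -0.42. Over all alternative fits the unadjusted p from limma ran from 0.0056 to 0.207, and each adjusted p was 0.625 or more. The paper shows its stable Ror1 knockdown by western blot, which reads protein and not RNA. The deviations of the libraries from their group means had a leading component with 40.8% of the residual variance. The third library of each group stood on its positive side, with loadings of 0.55 and 0.60, while the other 4 libraries had loadings between -0.34 and -0.21. For ROR1, DKK3, KREMEN1, IGFBP4 and LGR4, the difference is also given without the third library of both groups.

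The 10 genes fell into 3 tiers of expression, in both groups. DKK1 stood alone at the top, with 329.0 ± 4.49 TPM with shCTL and 333.1 ± 12.6 TPM with shRor1 (mean ± SD, n = 3 each). ZNRF3, KREMEN1, PORCN and DKK3 formed a middle tier, between 2.56 and 6.80 TPM in the 6 libraries. RNF43, FRZB, NOTUM, SFRP1 and WIF1 were at or near 0, with a highest value of 0.18 TPM. DKK1 took from 93.4% to 95.1% of the summed TPM of the 10 genes in a library. Of the 10 genes, 5 passed the expression filter and were tested, and all of these came from the upper 2 tiers.

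**Figure D1:**
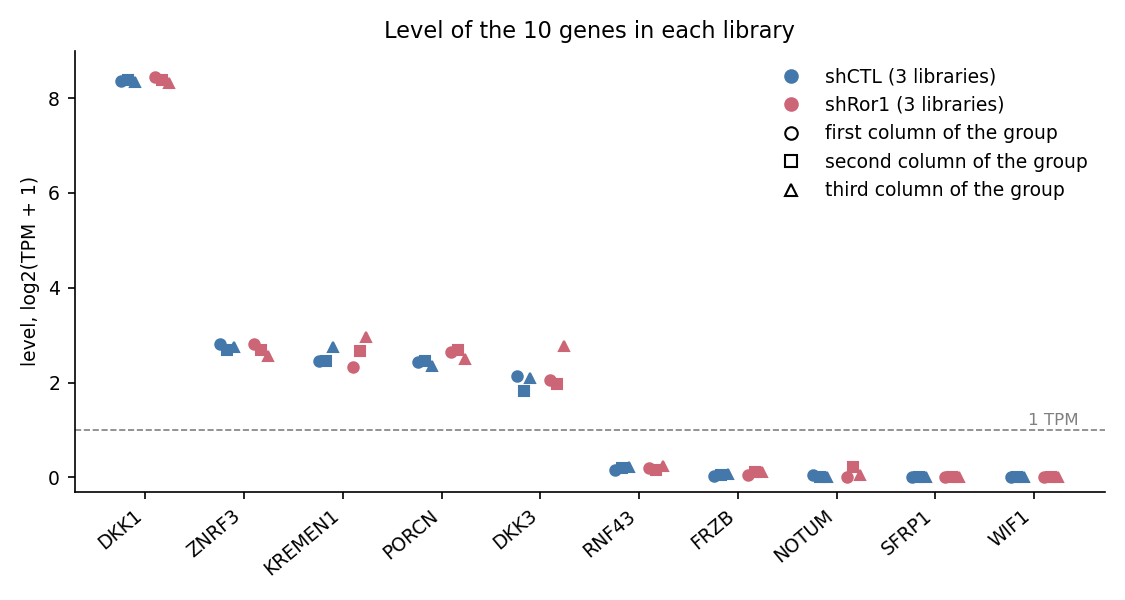
Levels of the 10 genes, as log2(TPM + 1), in each of the 3 shCTL (blue) and 3 shRor1 (red) libraries. Symbols mark the column order within a group, and the dashed line marks 1 TPM. DKK1 lies far above the 4 genes of the middle tier, and 5 genes lie below the line in every library.

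The order of the levels in shCTL was DKK1, ZNRF3, KREMEN1, PORCN, DKK3, RNF43, FRZB, NOTUM, SFRP1 and WIF1. The mean of DKK1 was 57.2 times that of ZNRF3, the next gene, in shCTL and 60.7 times in shRor1. The ranges of ZNRF3 and KREMEN1 overlapped in both groups, as did those of KREMEN1 and PORCN. No test between genes was run, so these overlaps only describe the ranges. PORCN lay above DKK3 without overlap in shCTL, while the ranges of these genes overlapped in shRor1. A gap without overlap separated DKK3 from RNF43 in both groups, with a ratio of means of 21.6 in shCTL and 26.6 in shRor1. RNF43 also lay above FRZB without overlap in both groups, and the ranges of FRZB, NOTUM, SFRP1 and WIF1 overlapped with the next gene in each case.

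DKK1 (ENSG00000107984.5, chromosome 10 of GRCh37 from 54074041 to 54077802, plus strand) encodes the secreted protein that keeps Wnt ligands from signaling through LRP5/6. It ranked at position 425 of 57445 genes by its mean level in shCTL. The values were 328.25, 333.76 and 324.86 TPM with shCTL, against 345.83, 332.62 and 320.72 TPM with shRor1. The first shRor1 library was above all controls and the third below all of them, and the groups overlapped. The difference was 0.02 (standard error 0.06), with a 95% confidence interval from -0.13 to 0.16 and an adjusted p of 0.987 from limma. After median ratio scaling the difference was -0.06. The interval corresponds to 0.915-fold to 1.12-fold, the narrowest of the 5 tested genes. On the other strand, PRKG1-AS1, an antisense transcript, shared 227 exon bases with DKK1 and had between 4.51 and 6.29 TPM.

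Upstream sequences from RefSeq were matched for 5 of the 10 genes, DKK1, FRZB, WIF1, RNF43 and PORCN. They are shown for DKK1, the most abundant gene, and for PORCN, the gene whose groups did not overlap. The table of sequences uses GRCh38.p14, and each printed run was found at 1 place on its chromosome in GRCh37, at chr10:54073791-54074040 for DKK1 and at chrX:48367130-48367346 for PORCN, both on the plus strand and ending before the annotated gene start. Capitals mark matches to TATAAA, the core promoter element called the TATA box, and to CTTTGAA or CTTTGTT, forms of the core word of TCF/LEF factors. The further forms CTTTGAT and CTTTGTA were searched too, all on both strands.
DKK1: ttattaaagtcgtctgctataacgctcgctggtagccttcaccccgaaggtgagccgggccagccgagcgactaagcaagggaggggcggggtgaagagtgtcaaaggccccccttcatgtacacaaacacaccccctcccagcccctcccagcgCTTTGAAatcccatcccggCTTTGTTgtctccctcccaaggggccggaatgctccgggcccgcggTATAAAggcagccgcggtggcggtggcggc
PORCN: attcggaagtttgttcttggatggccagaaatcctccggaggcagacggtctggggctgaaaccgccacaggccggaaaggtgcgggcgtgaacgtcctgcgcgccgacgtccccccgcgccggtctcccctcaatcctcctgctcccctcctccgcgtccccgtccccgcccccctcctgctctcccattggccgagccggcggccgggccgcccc
In the 250 bases before the RefSeq start, DKK1 held TATAAA at position -30, CTTTGAA at position -95 and CTTTGTT at position -76, none of which overlapped another. Among 35116 windows of the same length before RefSeq starts, 10.7% held TATAAA and 12% held at least 1 of the 4 forms of the TCF/LEF word. The windows of PORCN, FRZB, WIF1 and RNF43 held neither motif in these letters. GC content was 62.8% in the DKK1 run and 71% in the PORCN run. Binding was not measured in this experiment.

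KREMEN1 (ENSG00000183762.8, chromosome 22 from 29469023 to 29564321, plus strand), the surface receptor that takes up LRP6 together with DKK1, had 4.49, 4.52 and 5.74 TPM with shCTL, against 4.06, 5.35 and 6.80 TPM with shRor1. The third library was the highest within each group, and the groups overlapped. The difference was 0.10 (standard error 0.18, 95% confidence interval -0.32 to 0.52), with an adjusted p of 0.986 from limma. It was -0.06 without the third shRor1 library, 0.26 without the first shRor1 library and 0.04 without the third library of both groups. The level of DKK1 was between 56.6 and 73.8 times that of KREMEN1 in shCTL libraries and between 47.2 and 85.2 times in shRor1.

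DKK3 (ENSG00000050165.13, chromosome 11 from 11977754 to 12031316, minus strand) had 3.43, 2.56 and 3.29 TPM with shCTL, against 3.17, 2.90 and 5.88 TPM with shRor1. The third shRor1 library was above all others, and the other shRor1 libraries lay within the range of the controls. The difference was 0.24 (standard error 0.23, 95% confidence interval -0.29 to 0.77), with an adjusted p of 0.984 from limma. Without the third shRor1 library it was -0.015, so the positive value rested on that library. It was 0.02 without the third library of both groups. USP47, a deubiquitinase gene on the opposite strand, shared 5681 exon bases with DKK3 in the annotation used here and had 36.0 ± 0.99 TPM with shCTL and 41.4 ± 2.86 TPM with shRor1 (mean ± SD, n = 3 each), with groups that did not overlap (difference 0.19, unadjusted p = 0.046 and adjusted p = 0.984 from limma). Of all tested genes, 6.48% likewise did not overlap with shRor1 higher, and 2.85% had an unadjusted p below 0.05 from limma. The library kit keeps the strand, but whether the strand was used in counting is not given in the sources used here, and the part of USP47 reads in the value of DKK3 was not tested.

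**Figure D2:**
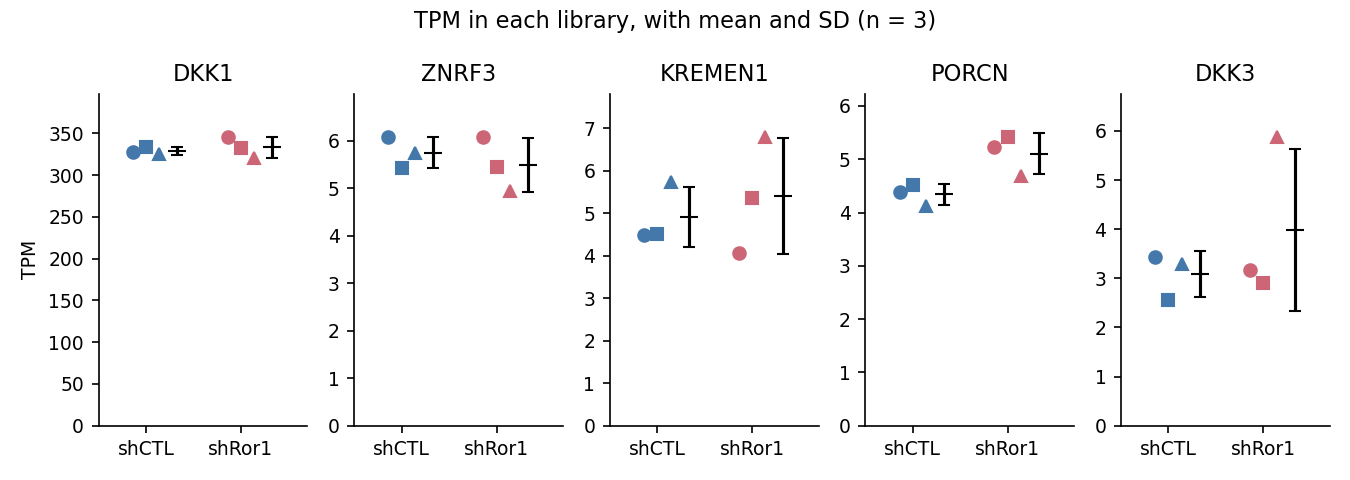
TPM of the 5 tested genes in each library, by group, on axes that start at 0; symbols mark the column order, and the black bars show the mean and the SD (n = 3). The groups overlap for DKK1, ZNRF3, KREMEN1 and DKK3, and for PORCN the 3 shRor1 libraries lie above the 3 shCTL libraries.

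Among the ligases for Frizzled turnover, ZNRF3 was transcribed and RNF43 hardly was. ZNRF3 (ENSG00000183579.11, chromosome 22 from 29279560 to 29453476, plus strand) had 6.08, 5.43 and 5.73 TPM with shCTL, against 6.08, 5.45 and 4.93 TPM with shRor1. Only the third shRor1 library was below all controls. The difference was -0.06 (standard error 0.12, 95% confidence interval -0.33 to 0.22), with an adjusted p of 0.986 from limma, and it was 0.0035 without the third shRor1 library. RNF43 (ENSG00000108375.8, chromosome 17 from 56431037 to 56494956, minus strand) had 0.11, 0.15 and 0.17 TPM with shCTL, against 0.15, 0.12 and 0.18 TPM with shRor1. In the annotation used here RNF43 shares 345 exon bases with TSPOAP1-AS1 on the opposite strand and 4326 with ENSG00000285897 on the same strand, a gene not analysed here. ZNRF3 gave from 96.5% to 98.2% of the summed TPM of both ligases. ZNRF3 and KREMEN1 are neighbours on chromosome 22, with 15546 bases between them and 1 annotated gene, C22orf31, in that gap. Over the 6 libraries their levels had a Pearson r of -0.80, which is a description of 6 points that share library scaling.

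PORCN was the only gene of the 5 tested whose groups did not overlap. PORCN (ENSG00000102312.15, chromosome X from 48367347 to 48379202, plus strand), the acyltransferase on which Wnt secretion depends, had 4.38, 4.51 and 4.13 TPM with shCTL, against 5.22, 5.42 and 4.68 TPM with shRor1. Each of the 3 shRor1 libraries was above all controls, with 4.34 ± 0.19 TPM with shCTL and 5.11 ± 0.38 TPM with shRor1 (mean ± SD, n = 3 each). The difference was 0.19 (standard error 0.11), with a 95% confidence interval from -0.07 to 0.46, an unadjusted p of 0.129 and an adjusted p of 0.984 from limma. By exact permutation the two-sided p was 0.1, the smallest that 3 libraries against 3 can reach. Among all tested genes, 6.48% did not overlap with shRor1 higher and 1.3% with shRor1 lower, so 1 such gene of 5 is to be read against this background. The difference depended on the scaling, since it was 0.10 after quantile normalization and 0.13 after median ratio scaling, where the groups overlapped (4.03 to 4.75 in shCTL and 4.28 to 5.34 in shRor1).

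NOTUM, the secreted enzyme that removes the lipid which PORCN adds, was near 0 in all libraries (ENSG00000185269.7, chromosome 17 from 79910383 to 79919716, minus strand). It was listed at 0.03, 0 and 0.01 TPM with shCTL, against 0, 0.16 and 0.04 TPM with shRor1. The second shRor1 library held the highest value, and the groups overlapped. ENSG00000235296 on the opposite strand shared 148 exon bases with NOTUM.

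The antagonists that bind Wnt ligands themselves were almost absent from the libraries. FRZB (ENSG00000162998.4, chromosome 2 from 183698002 to 183731365, minus strand) had 0.02, 0.04 and 0.05 TPM with shCTL, against 0.04, 0.09 and 0.09 TPM with shRor1. SFRP1 (ENSG00000104332.7, chromosome 8 from 41119481 to 41166992, minus strand) was listed at 0.01 TPM in the second shCTL and the third shRor1 library and at 0 in the other 4 libraries. WIF1 (ENSG00000156076.5, chromosome 12 from 65444406 to 65515085, minus strand) was listed at 0 in all 6 libraries. Their summed level was at most 0.10 TPM in any library. These levels lie near the last decimal of the deposited values, so that a change of these genes could not be seen here. Without the expression filter, FRZB had a difference of 0.05 (adjusted p = 0.922 from limma) and NOTUM of 0.07 (adjusted p = 0.922 from limma).

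Considering the 5 tested genes as a group, 4 were higher and 1 was lower in shRor1, with a median difference of 0.10, beside a median of 0.05 over all 16554 genes, of which 11093 were higher (67.0%). This split depended on the scaling, with 50.5% of all genes higher after quantile normalization and 44.6% after median ratio scaling, where DKK1 also turned lower (-0.06). With an adjusted p below 0.05, 0 of the 5 were called, and 0 of all genes were (0%, limma), with a smallest adjusted p of 0.369. The paper, which fitted counts, reports a low number of differentially expressed genes for this comparison. AGR2 is among them, and none of the genes described here is. At an unadjusted p below 0.05 there were 0 of the 5 genes and 472 of all genes (2.85%, limma). In a plot of the differences the interval of each of the 5 genes spans 0. The intervals had different widths, from 0.915-fold to 1.12-fold for DKK1 to 0.818-fold to 1.71-fold for DKK3, each on the TPM + 1 scale.

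**Figure D3:**
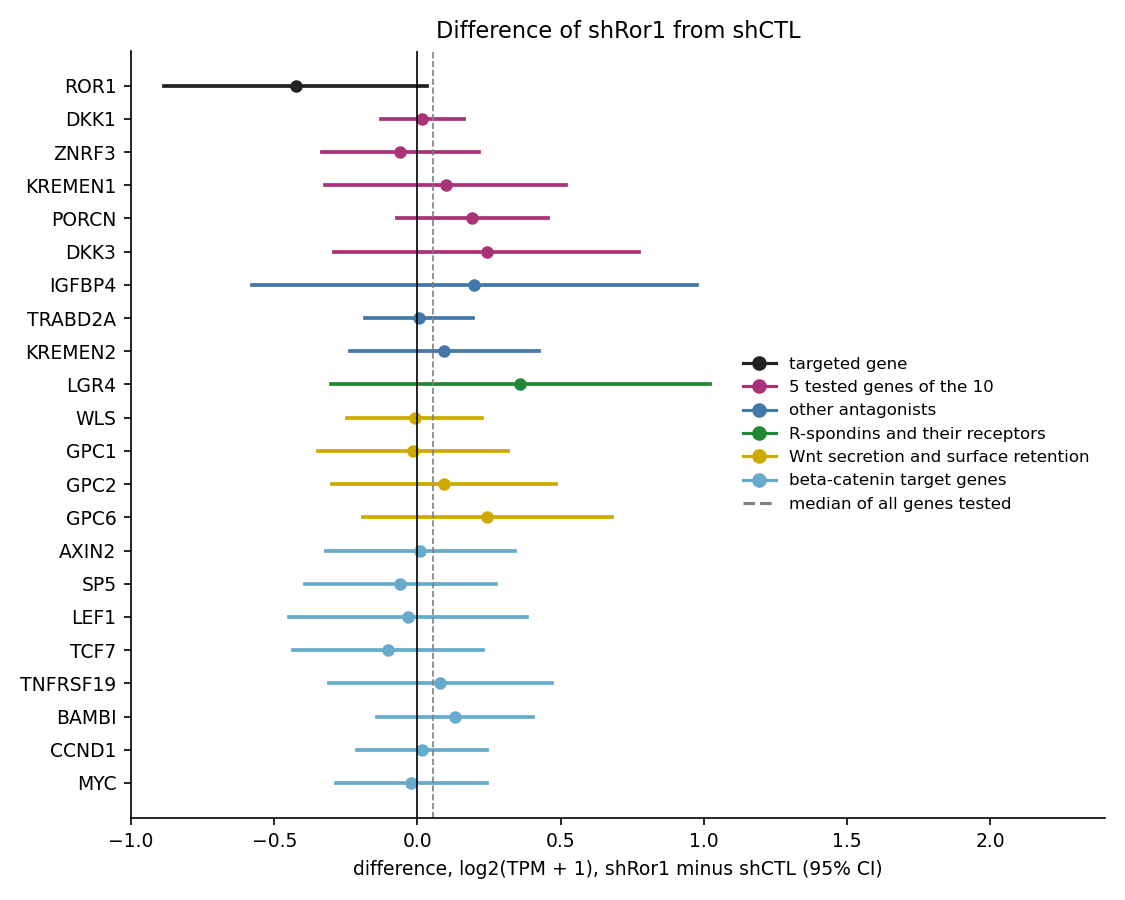
Difference of shRor1 from shCTL on the log2(TPM + 1) scale (points) with 95% confidence intervals (lines) for ROR1, the 5 tested genes of the 10 and the 16 tested genes of the pathway lists. The solid line marks 0 and the dashed line the median of all tested genes, 0.05; every interval shown includes 0.

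Further genes of the same steps were taken from 4 lists with 40 genes, of which 16 were tested, 10 higher and 6 lower in shRor1, with a median difference of 0.01. With an adjusted p below 0.05, 0 of the 16 were called, beside 0% of all genes. An unadjusted p below 0.05 was found for 0 of the 16, beside 2.85% of all genes. Groups without overlap were found for 0, beside 6.48% of all genes with shRor1 higher and 1.3% with shRor1 lower. At such shares, 0 of 16 does not set these genes apart. Without the first shRor1 library, 2 of the 16 had an unadjusted p below 0.05, LGR4 and GPC6, beside 1720 of all 16554 genes. Their adjusted p in that fit was 0.44 and 0.464 from limma, so 0 were called. Of the 14 other antagonists, secreted or at the membrane, 11 stayed below 1 TPM in every library, among them DKK2, DKK4, SFRP2, SFRP4, SFRP5 and SOST, and 3 were tested. TRABD2A, a membrane protease that cleaves Wnt ligands, had 19.6 ± 0.90 TPM in shCTL and 19.7 ± 0.18 TPM in shRor1 (SD, n = 3 each). KREMEN2, the paralog of KREMEN1, had 1.14 ± 0.14 TPM in shCTL and 1.29 ± 0.25 TPM in shRor1 (SD, n = 3 each). IGFBP4, an insulin-like growth factor binding protein that can also bind LRP6, exceeded DKK1 with 756.46, 879.87 and 1245.04 TPM with shCTL, against 650.26, 1149.52 and 1676.57 TPM with shRor1. It was highest in the third library of each group, and its difference of 0.20 (95% confidence interval -0.58 to 0.98) was -0.12 without the third shRor1 library and 0.56 without the first. Without the third library of both groups the difference of IGFBP4 was 0.08.

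R-spondins and their LGR receptors remove ZNRF3 and RNF43 from the membrane and so stabilize Frizzled receptors. All 4 R-spondins, LGR5 and LGR6 stayed below 1 TPM everywhere. LGR4 was the expressed receptor, with 13.88, 17.46 and 19.40 TPM with shCTL, against 13.06, 26.46 and 29.65 TPM with shRor1. The second and the third shRor1 libraries were above all controls and the first was below all of them. The difference was 0.36 (standard error 0.28, 95% confidence interval -0.30 to 1.02), with an adjusted p of 0.984 from limma. It was 0.71 without the first shRor1 library, 0.15 without the third and 0.25 without the third library of both groups.

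Of 9 genes of Wnt secretion and surface retention, 4 were tested, with 2 higher and 2 lower in shRor1. WLS, the carrier that takes lipid-modified Wnt proteins to the surface after PORCN has acted, had 54.5 ± 5.62 TPM in shCTL and 54.1 ± 4.57 TPM in shRor1 (SD, n = 3 each), with a difference of -0.01 (95% confidence interval -0.24 to 0.23). Among the glypicans, heparan sulfate proteoglycans that hold Wnt ligands at the membrane, GPC1 had 26.7 ± 2.77 and 26.6 ± 5.04 TPM, GPC6 had 5.54 ± 0.67 and 6.87 ± 1.85 TPM, and GPC2 had 1.2 ± 0.25 and 1.36 ± 0.37 TPM in shCTL and shRor1, respectively (SD, n = 3 each). With all libraries, the difference was 0.24 for GPC6 (95% confidence interval -0.19 to 0.68) and 0.09 for GPC2. For GPC6 it was 0.08 without the second shRor1 library, where GPC2 had 0.22, and 0.43 without the first shRor1 library.

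Since several antagonists are β-catenin targets themselves, 10 other known β-catenin targets were read beside them. Of these, 8 were tested, 4 higher and 4 lower in shRor1, with a median difference of -0.01 and a range from -0.10 to 0.13. AXIN2, a widely used target of the pathway, had a difference of 0.01 (95% confidence interval -0.32 to 0.34). CCND1, which encodes cyclin D1, had 225.7 ± 16.3 TPM in shCTL and 228.9 ± 25.0 TPM in shRor1, and MYC had 94.3 ± 6.95 and 93.4 ± 13.4 TPM (SD, n = 3 each). LEF1, a transcription factor of the pathway, had 13.5 ± 1.74 and 13.3 ± 3.11 TPM, and BAMBI, a pseudoreceptor for TGF-β, had 4.73 ± 0.28 and 5.28 ± 0.51 TPM (SD, n = 3 each). None of these groups was separated.

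Between libraries, some pairs of the 5 tested genes varied together or in opposite directions, and others hardly did. Over the 6 libraries, log2(TPM + 1) of KREMEN1 had a Pearson r of -0.84 with DKK1, -0.80 with ZNRF3 and 0.73 with DKK3, while PORCN had r between -0.19 and 0.59 with the other 4. These coefficients describe 6 points that share library, scaling and group. The share of all gene pairs with coefficients of this size was not computed. The genes most similar to DKK1 over the 6 libraries were a long noncoding RNA, ENSG00000259560 (r = 0.99), CHCHD10, a mitochondrial protein (r = 0.99), and WRAP73 (r = 0.98). Those most similar to ZNRF3 were SHMT2, a mitochondrial enzyme of serine metabolism, TUBA1B, an α-tubulin, and DDX28, an RNA helicase (each r = 1.00 at 2 decimals). They were picked from 16553 genes on 6 values, and 19 genes reached an r above 0.95 with DKK1 and 72 with ZNRF3.

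**Figure D4:**
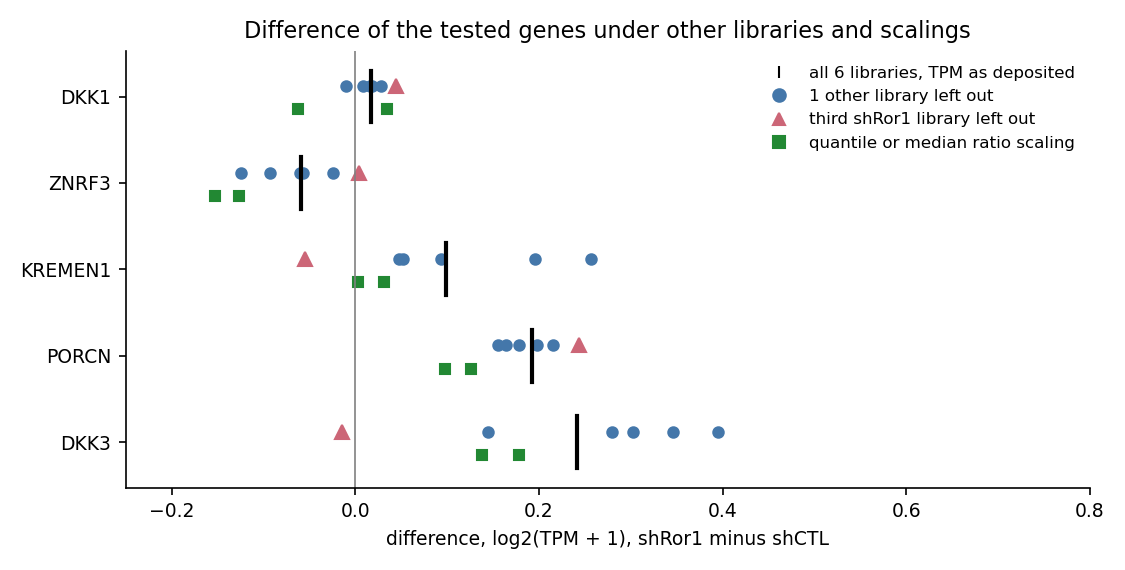
Difference of shRor1 from shCTL on the log2(TPM + 1) scale for the 5 tested genes with all libraries (black), with 1 library left out (blue, or red for the third shRor1 library) and after another scaling (green). Without the third shRor1 library, DKK3 moves from 0.24 to -0.015 and KREMEN1 from 0.10 to -0.06, and PORCN stays above 0 throughout.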

How the data were processed

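RNA of 3 shCTL and 3 shRor1 libraries was sequenced as single reads. Per the study's methods and processing notes, alignment used STAR on GRCh37 with Ensembl 73 gene models, and RSEM 1.2.5 quantified the genes. The values deposited by the authors are TPM with 2 decimals for 57445 genes, although the table is called one of expected counts, and each column sums to 1000000 within rounding. The deposited table keeps no depth, so the count model of the study could not be fitted. No per-sample columns were left unused.

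The 16554 genes reaching 1 TPM in 3 or more libraries were tested on log2(TPM + 1) with limma 3.58.1 in R 4.3.3, with the condition as the only term, a trended prior variance and p-values adjusted after Benjamini-Hochberg at 0.05. The fit was tested on simulated data. An exact permutation test over libraries (two-sided) was also run gene by gene. Positions and overlapping exons came from GENCODE 44 mapped to GRCh37, and upstream sequences from RefSeq. Symbols were matched for 55022 genes. The genes and lists were chosen with earlier results of these data known. Named are the 10 genes, ROR1, genes with overlapping exons, the 4 tested genes with the highest mean TPM of each list and those with an unadjusted p below 0.05, and the 3 genes most correlated with each of the 2 most abundant members. Other listed genes and markers are named as list members (some markers are not reported here), and CDH1, TFF1, TFF3 and RPL39P3 were chosen after their values were seen.

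Alternatives were another pseudocount, 2 other filters, 2 scalings, 2 other variance models, array weights and each library left out. A covariate for the leading residual component and leaving out the third library of both groups were chosen after the data were seen.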

Additional observations from a re-analysis of the deposited data

How the results depend on the processing

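No paired analysis was possible because no column header gives a replicate number. Over 16 alternative fits, 0 to 1 genes had an adjusted p below 0.05, and 0 of the 5 tested genes and of the pathway lists did. The 1 gene, RPL39P3, a pseudogene named after its values were seen, was called without the third shRor1 library and without the third library of both groups (1 gene each). The genes with an unadjusted p below 0.05 numbered 472 with all libraries, and between 227 (mean of at least 5 TPM) and 1720 (first shRor1 library left out) over the alternatives, with 278 when the second shCTL library was left out. Over all genes, 67.0% were higher in shRor1, but 50.5% after quantile normalization and 44.6% after median ratio scaling. PORCN was higher and ROR1 lower in shRor1 under each alternative that gave a value, by 0.10 to 0.24 and by -0.58 to -0.26. With a mean of at least 5 TPM, PORCN, DKK3, KREMEN2 and GPC2 were not tested. The adjusted p of the 5 genes ran from 0.589 to 1. With 1 library left out, the differences ran from -0.010 to 0.044 for DKK1, from -0.015 to 0.39 for DKK3, from -0.12 to 0.0035 for ZNRF3 and from -0.055 to 0.26 for KREMEN1. For the pathway genes they ran from -0.12 to 0.56 for IGFBP4, from -0.028 to 0.034 for TRABD2A, from -0.060 to 0.073 for WLS, from -0.16 to 0.091 for GPC1, from -0.0048 to 0.22 for GPC2, from -0.061 to 0.096 for CCND1, from -0.13 to 0.077 for MYC and from -0.17 to 0.15 for LEF1. Signs also turned with median ratio scaling (-0.063 for DKK1, -0.070 for TRABD2A, -0.063 for CCND1), with quantile normalization (-0.049 for TRABD2A), with array weights (-0.016 for TRABD2A, 0.0069 for WLS, 0.012 for GPC1) and without the third library of both groups (0.0022 for ZNRF3, -0.033 for TRABD2A, 0.021 for WLS, 0.021 for MYC, 0.048 for LEF1), and the cause was not tested. Of 80 recomputed group levels of the 10 genes, 79 moved by at most 1 SD. The mean of 3 libraries cannot move further when 1 is left out, so those levels were no check. Only levels after median ratio scaling could move further, and of these DKK1 in shCTL did, with 336.3 TPM against 329.0 TPM. WIF1, at 0 throughout, could not move at all. Summing over genes with overlapping exons on the same strand was not run, since no such partner of the 10 genes was analysed here.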

Other observations

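Among the markers used to check the line, CDH1, which encodes E-cadherin and was singled out after its values were seen, had groups without overlap, with 1.01 ± 0.21 TPM in shCTL and 1.41 ± 0.06 TPM in shRor1 (SD, n = 3 each), and a difference of 0.27 (standard error 0.14, unadjusted p = 0.085 and adjusted p = 0.984 from limma), beside 6.48% of all tested genes that did not overlap with shRor1 higher. The trefoil factor genes varied most among the luminal markers. TFF3 had 1.54, 2.64 and 5.16 TPM in shCTL and 1.72, 7.5 and 10.99 TPM in shRor1, and TFF1 had 2.17, 6.14 and 2.91 TPM in shCTL and 2.05, 15.26 and 3.00 TPM in shRor1.

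Over all tested genes, the deviations of libraries from their group means correlated at 0.284 for the first, 0.238 for the second and 0.399 for the third columns of both groups, while the other 6 combinations across groups lay between -0.281 and -0.003. Deviations within a group cancel out for each gene, so positive values in some combinations force negative ones in others. These values describe column positions, which carry no replicate number.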
